A study of Mus musculus with 48 samples.

Results

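The genes described here encode proteins that make or buffer ATP: subunits of the mitochondrial respiratory chain and of ATP synthase, the brain-type creatine kinase, and enzymes of glycolysis. They were chosen by symbol, as Hk1, Pgk1, Pgam1 and Ckb together with every gene whose symbol begins with Atp5, Nduf, Uqcr or Sdh, or with Cox and a digit. This gave 9 of the 478 genes in the tables: Ndufa10 and Ndufb5 of complex I, Atp5b, Atp5g3 and Atp5pb of ATP synthase, Ckb, and the glycolytic enzymes Hk1, Pgk1 and Pgam1. The rule itself used names and no measured value, but the genes were chosen with earlier results of these data known. Counts among the 9 therefore describe them and are no independent evidence for the group.

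RNA was counted with the nCounter mouse glial panel in microglia sorted from the hippocampus of Balbc/Byj mouse pups aged 17 days. There were 16 pups in each of the rearing groups LB, UPS and CTL, with 8 of each sex, run in 4 batches that each held 2 pups of every rearing group and sex. As background, LB is a limited bedding model of early-life stress, UPS adds unpredictable postnatal stress, and CTL is standard control rearing. No allele, drug or transgene is named in the labels for any group, and some pups of a group were littermates. The values come from the authors' deposited tables, 1 for each pair of groups with the sexes pooled, and are log2 ratios with their p-values. No value per animal was analysed here. A gene is said to pass where the deposited p, adjusted by the Benjamini-Hochberg method over all 478 genes, was below 0.05. Neither headers nor labels name the group on top of a ratio, so each sign stands as the authors gave it. A change of reading would turn all 3 tables at once, and the order of the groups along a line, with one of them in the middle, is the same either way.

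As background, glycolysis splits glucose to pyruvate in the cytosol, and the electron transport chain of the inner mitochondrial membrane pumps protons that ATP synthase uses to make ATP. Creatine kinase moves the phosphate of ATP to creatine and back, which carries energy to sites of use. Microglia run both pathways and are known to lean more on glycolysis when activated by inflammatory stimuli. Most subunits of these complexes, including all those measured here, are encoded in the nucleus.

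Of the 9 genes, Atp5g3 and Ckb passed between UPS and LB, both with a negative sign, and none passed against CTL. In the authors' deposited table for UPS and LB the log2 ratio was -0.14 for Atp5g3 (linear ratio 0.907) and -0.091 for Ckb (linear ratio 0.939). Read as a share of all genes, 6.28% of the 478 passed between UPS and LB, with 1.67% at a negative and 4.6% at a positive sign. Between UPS and CTL 4.81% of all genes passed, with 0 of the 9 among them. Between LB and CTL 0% of the 478 genes passed by the deposited nSolver p with Benjamini-Hochberg adjustment. Without adjustment, 56 genes had p below 0.05 between LB and CTL (11.7%), Atp5g3 and Ckb among them, and after other adjustments or with a normal test up to 3 genes passed there, none of these 9. In a bulk lysate of sorted cells, fewer cells of a type and less RNA per cell cannot be told apart.

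**Figure D1:**
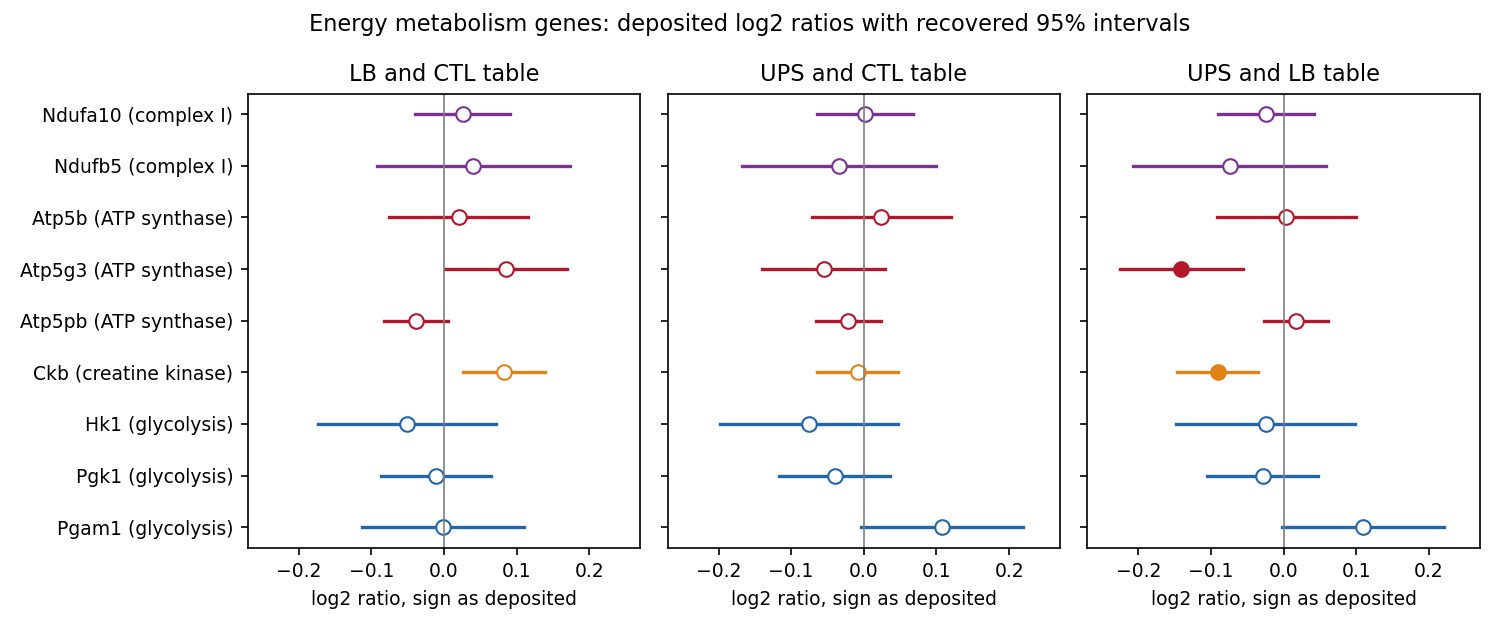
Log2 ratios of the 9 genes (x axis, sign as deposited) in the tables for LB and CTL, UPS and CTL, and UPS and LB, with lines for the 95% intervals recovered from ratio and p, and filled points for genes that passed. The filled points are Atp5g3 at -0.14 and Ckb at -0.091 between UPS and LB, and every other interval in that panel includes 0.

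The upstream sequences of Atp5g3 and Ckb are shown because these 2 genes passed in the same comparison with the same sign. They are the 250 bases before the RefSeq transcript start in GRCm38.p6, on the minus strand, at chr2:73911327-73911576 for Atp5g3 and chr12:111672339-111672588 for Ckb, written 5′ to 3′. Capitals mark CCAAT and TATAAA, searched on both strands.
Atp5g3: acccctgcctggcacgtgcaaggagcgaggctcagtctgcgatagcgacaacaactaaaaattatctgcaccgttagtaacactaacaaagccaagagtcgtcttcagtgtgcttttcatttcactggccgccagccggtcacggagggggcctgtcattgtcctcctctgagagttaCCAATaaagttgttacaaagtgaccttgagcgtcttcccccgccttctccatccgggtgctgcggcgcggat
Ckb: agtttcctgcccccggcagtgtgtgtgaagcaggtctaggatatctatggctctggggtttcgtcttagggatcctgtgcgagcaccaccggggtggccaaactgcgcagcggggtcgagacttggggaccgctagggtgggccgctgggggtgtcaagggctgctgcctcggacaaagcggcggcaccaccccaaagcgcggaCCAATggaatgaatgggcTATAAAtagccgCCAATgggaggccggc
The Atp5g3 window held CCAAT once, beginning 72 bases before the start. The Ckb window held it at 46 and at 16 bases before the start, with TATAAA between them at 28 bases. CCAAT occurred in 33.8% of the 32851 RefSeq windows of this length and TATAAA in 12.4%.

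All 9 symbols matched RefSeq, which gave 10 windows, since Hk1 has a pair of starts. CCAAT was in the windows of 4 of the 9 genes, Atp5g3, Ckb, Atp5b and Pgk1, so genes that did not pass carried it as well. TATAAA was in the Ckb window only. GGGCGG, the GC box, was in 4 of the 9 (Atp5b, Atp5pb, Ndufa10 and Pgk1), against 32.7% of all windows, and neither Atp5g3 nor Ckb had it. GCCATNTT, the core of the YY1 motif, was in the Ndufb5 window on the minus strand, against 3.91% of all windows. The ETS core CCGGAAG, in 6.91% of all windows, was in none of the 10. These are matches of letters in a window, and no binding was measured.

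Ndufa10 and Ndufb5 encode accessory subunits of complex I, the NADH dehydrogenase that feeds electrons into the chain. Ndufa10 lay within 1.07-fold in all 3 comparisons by its recovered 95% intervals. Its log2 ratio in the authors' deposited tables was 0.026 between LB and CTL (adjusted p = 0.791), 0.0019 between UPS and CTL (adjusted p = 0.982) and -0.024 between UPS and LB (adjusted p = 0.715). Ndufb5 was measured less closely, with a recovered standard error of 0.066 against 0.033 for Ndufa10. In the authors' deposited tables its log2 ratios were 0.041 between LB and CTL, -0.034 between UPS and CTL and -0.074 between UPS and LB, and none passed. The interval of Ndufb5 between UPS and LB ran from 0.866-fold to 1.04-fold, so a difference of the size of that in Atp5g3 lay inside it.

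The ATP synthase subunits had different values from each other. Atp5g3 encodes subunit c, of which the rotating ring of the enzyme is built, and it passed between UPS and LB (p = 0.00162, adjusted p = 0.0277 in the authors' deposited table). Its recovered 95% interval for UPS and LB ran from -0.23 to -0.057 on the log2 scale, or from 0.855-fold to 0.962-fold. Against CTL its log2 ratio was 0.086 for LB (p = 0.0469, adjusted p = 0.413) and -0.055 for UPS (p = 0.193, adjusted p = 0.523) in the authors' deposited tables. By the point values CTL therefore lay between LB and UPS, with 60.8% of the distance on the LB side, and neither step to CTL passed. The interval of UPS and CTL, from 0.908-fold to 1.02-fold, included no difference, so the place of CTL is not settled. With n = 16 per group, the call between UPS and LB was lost with Benjamini-Yekutieli adjustment (adjusted p = 0.187), and the adjusted p of Atp5g3 ran from 0.0128 to 0.187 over 5 alternatives.

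Atp5b, the catalytic beta subunit, and Atp5pb, the b subunit of the peripheral stalk, passed in none of the 3 comparisons. In the authors' deposited tables the log2 ratio of Atp5b was 0.020 between LB and CTL, 0.024 between UPS and CTL and 0.0039 between UPS and LB. Its interval for UPS and LB reached from 0.938-fold to 1.07-fold. Atp5pb had the smallest recovered standard error of all 478 genes, 0.022 on the log2 scale. In the authors' deposited tables its log2 ratios were -0.039 between LB and CTL (p = 0.0848), -0.021 between UPS and CTL (p = 0.34) and 0.018 between UPS and LB (p = 0.428). Its interval for UPS and LB was 0.982-fold to 1.04-fold and did not overlap that of Atp5g3, while the wider interval of Atp5b did. The difference between these subunits was not tested, since values per animal would be needed for it. Of the genes for subunit c the tables list Atp5g3, and whether its probe also counts the transcripts of its close paralogues was not tested.

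Ckb, the cytosolic brain-type creatine kinase, separated LB from both other groups more than UPS from CTL. Its log2 ratio between UPS and LB was -0.091 (p = 0.00212, adjusted p = 0.0337 in the authors' deposited table), with a recovered interval from -0.15 to -0.035. Between LB and CTL it was 0.083 (p = 0.00486, adjusted p = 0.194), which was the 12th smallest p of the authors' deposited table without passing. UPS and CTL lay close together, at -0.0084 (p = 0.764, adjusted p = 0.903) in the authors' deposited table, with an interval from 0.956-fold to 1.03-fold. Along the line from LB through CTL to UPS, 90.8% of the distance was on the LB side by the point values. The interval of UPS and CTL included no difference, so which of them lay nearer to LB is not settled.

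The Ckb call was at the edge of the threshold. Ckb had the largest p of the 30 genes that passed between UPS and LB and the smallest log2 ratio in size among them, and its recovered standard error of 0.028 was the 25th smallest of 478. The next gene in the authors' deposited table, Pmp22, had an adjusted p of 0.0519. With n = 16 per group, the Ckb call was lost when the 3 tables were adjusted together (adjusted p = 0.0553), when the ratios were centred on the median of all genes (log2 ratio -0.081, adjusted p = 0.0712) and with Benjamini-Yekutieli adjustment (adjusted p = 0.228). Its lowest adjusted p over 5 alternatives was 0.0168, with a normal test.

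Hk1, hexokinase 1, which phosphorylates glucose in the first step of glycolysis, did not pass in any comparison. Its log2 ratios in the authors' deposited tables were -0.051 between LB and CTL, -0.076 between UPS and CTL and -0.025 between UPS and LB. The intervals were wide for this group of genes, from 0.872-fold to 1.03-fold between UPS and CTL. Pgk1, phosphoglycerate kinase 1, which makes ATP in the later part of the pathway, was at log2 ratios of -0.011 between LB and CTL, -0.040 between UPS and CTL and -0.029 between UPS and LB in the authors' deposited tables. None of these 3 passed, and the interval for UPS and CTL was 0.923-fold to 1.03-fold.

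Pgam1, phosphoglycerate mutase 1, acts on the product of Pgk1. Its log2 ratio was 0.11 between UPS and CTL (p = 0.0573, adjusted p = 0.315) and 0.11 between UPS and LB (p = 0.0548, adjusted p = 0.279) in the authors' deposited tables, and it passed in neither. Between LB and CTL it was -0.0012 (p = 0.983) in the authors' deposited table. By its point values, nearly the whole spread of Pgam1 lay between UPS and the other groups, with 1.05% of the distance on the LB side. Its interval between LB and CTL ran from 0.925-fold to 1.08-fold, so the place of CTL is not settled. Its interval between UPS and LB, from 0.998-fold to 1.17-fold, just included no difference. Both of these comparisons use the same UPS libraries, so the similar ratios of Pgam1 are not independent observations.

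**Figure D2:**
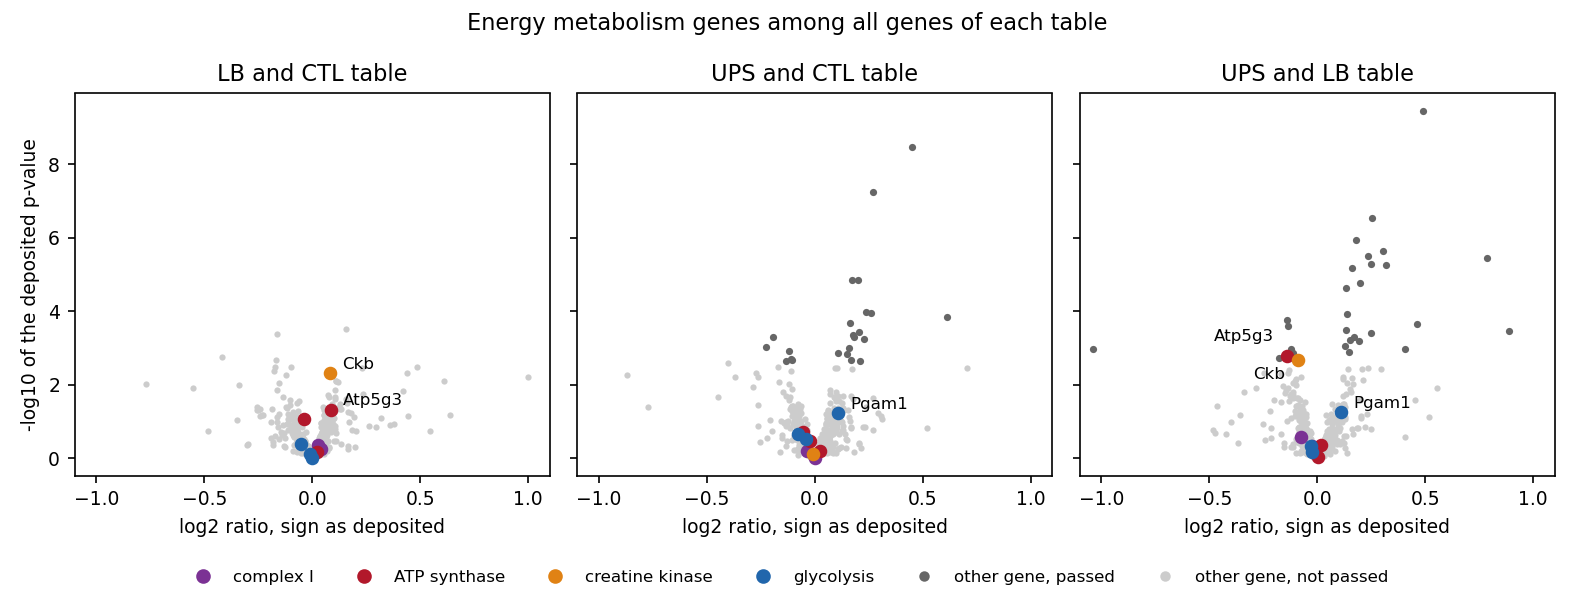
Each point is 1 of the 478 genes, with its log2 ratio (x axis, sign as deposited) and the -log10 of its deposited p-value (y axis) in the tables for LB and CTL, UPS and CTL, and UPS and LB. The coloured energy metabolism genes sit near the centre except Ckb and Atp5g3, which lie at the lower end of the dark points that passed between UPS and LB, and Pgam1 on the opposite side.

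The log2 ratios of the 9 genes ran from -0.051 to 0.086 between LB and CTL, from -0.076 to 0.11 between UPS and CTL, and from -0.14 to 0.11 between UPS and LB. The median size of the log2 ratio in the authors' deposited tables was 0.039 for the 9 genes and 0.043 for all 478 genes between LB and CTL, 0.034 and 0.051 between UPS and CTL, and 0.029 and 0.054 between UPS and LB. The signed medians of the 9 were 0.020, -0.021 and -0.025 in the authors' deposited tables for LB and CTL, UPS and CTL, and UPS and LB, where the medians of all genes were 0.0035, -0.0025 and -0.010. Of the 9, 6 had a negative ratio between UPS and LB, against 56.1% of all genes. By the point values CTL lay between LB and UPS for 4 of the 9 (Atp5g3, Ckb, Ndufb5 and Pgam1), against 37% of all genes. The intervals were not used for this order. The recovered standard errors of the 9 had a median of 0.042, against 0.050 for all genes, which range from 0.022 to 0.40.

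The 3 deposited ratios of a gene together gave an F test of any rearing difference, with 2 and 42 degrees of freedom. By this test 33 of 478 genes passed with Benjamini-Hochberg adjustment (6.9%), and of the 9 genes only Ckb did (n = 16 per group, F = 6.55, p = 0.00334, adjusted p = 0.0483). Atp5g3 followed with F = 5.76 (n = 16 per group, p = 0.00614, adjusted p = 0.0815) and Pgam1 with F = 2.58 (adjusted p = 0.321). The other 6 had adjusted p-values from 0.474 to 0.925. The call of Ckb was lost after centring on the median and with Benjamini-Yekutieli adjustment. At an unadjusted p below 0.05 the F test counted 94 genes (19.7%), Ckb and Atp5g3 among them, where the series text gives 87 genes for rearing from a test that also held sex.

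Genes of related pathways were taken from lists of pathway genes, of which 25 were measured. The lists span fuel oxidation, mitochondrial import, carriers and dynamics, and oxidant defence. They do not hold every metabolic gene of the tables, so the counts depend on how the lists were drawn. Between UPS and LB 3 of the 25 passed, all with a negative sign, against 6.28% of all genes. In the authors' deposited table these were Tomm70a, a receptor for proteins imported into mitochondria, with -0.12 (adjusted p = 0.0206), and Slc25a17, a carrier of cofactors into peroxisomes, with -0.13 (adjusted p = 0.00813). The third was Crot, a carnitine acyltransferase of peroxisomal fatty acid oxidation, with -0.14 (adjusted p = 0.00628) in the authors' deposited table. Between UPS and CTL 2 of the 25 passed, against 4.81% of all genes, with Tomm70a at -0.12 and Crot at -0.11 in the authors' deposited table, and between LB and CTL 0 did. The 9 genes and the 25 make 34 genes, or 7.11% of the table. Of the 8 genes that passed between UPS and LB with a negative sign 5 were among these 34, and of the 22 with a positive sign 0 were. The lists were drawn up with earlier results of these data known, so these counts describe the genes and are no independent evidence for the group.

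Pyruvate oxidation and the citric acid cycle link glycolysis to the respiratory chain. Of the list drawn for them 5 genes were measured, with Got1, an enzyme of neither pathway, among them. None passed, 3 were negative and 2 positive between UPS and LB, and the median there was -0.045 in the authors' deposited table, where the median of all genes was -0.010. The pyruvate dehydrogenase subunit genes Dlat and Pdhb had the smallest p-values, at -0.16 (p = 0.011, adjusted p = 0.105) and -0.099 (p = 0.0103, adjusted p = 0.1) between UPS and LB in the authors' deposited table. On the positive side were Pdha1, the partner subunit of Pdhb, at 0.090 (p = 0.156), and Got1, an aspartate aminotransferase, at 0.051 (p = 0.418) between UPS and LB in the authors' deposited table. Of 6 fatty acid oxidation genes 4 had a negative ratio between UPS and LB, and of 3 import genes 3 did, where 56.1% of all genes were negative. Of 5 genes on the list of mitochondrial carriers and channels, the peroxisomal Slc25a17 among them, 4 were negative there. The positive one was the mitochondrial carrier gene Slc25a12, at 0.16 (p = 0.0154, adjusted p = 0.13) between UPS and LB in the authors' deposited table. On the list of other glycolysis genes 1 was measured, Slc2a5, which encodes a fructose transporter and no enzyme of glycolysis. It had -0.091 between UPS and LB (adjusted p = 0.601) in the authors' deposited table. Of 3 oxidant defence genes none passed. Among them Hmox1, heme oxygenase 1, was at 0.24 between LB and CTL (p = 0.0173, adjusted p = 0.306) and Txn1, thioredoxin, at -0.074 between UPS and CTL (adjusted p = 0.31) in the authors' deposited tables. The mitochondrial fission and fusion genes Dnm1l (-0.048) and Opa1 (0.039) did not pass between UPS and LB in the authors' deposited table.

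**Figure D3:**
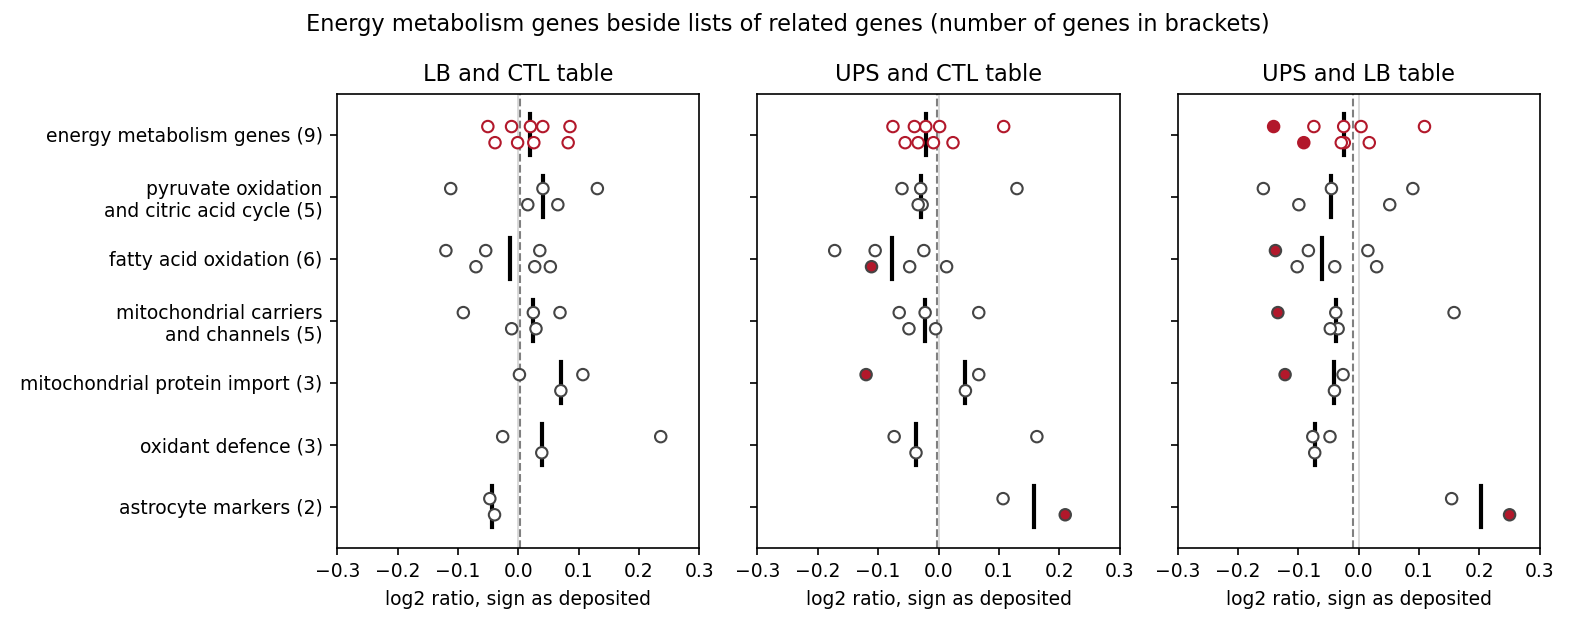
Log2 ratios (x axis, sign as deposited) of the 9 energy metabolism genes, of 5 lists of related genes and of the astrocyte markers in the tables for LB and CTL, UPS and CTL, and UPS and LB, with filled points for genes that passed, a black bar at each median and a dashed line at the median of all genes. Between UPS and LB the filled points of the 9 genes and of the related lists are all left of 0. The filled astrocyte marker, Slc1a3 at 0.25, is right of 0. The other marker lists are not drawn, and they hold Stab1 and the microglial Tmem119, which also passed with a positive sign between UPS and LB.

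The genes most like Atp5g3 and Ckb were found by the distance between their pairs of t values against CTL, the log2 ratios divided by the recovered standard error. The measure rests on 2 ratios that share the CTL animals, so many genes can lie close. Nearest to Atp5g3 were Il1a, the cytokine interleukin 1 alpha (distance 0.323), Pdhb (0.491) and Slc25a17 (0.619). Nearest to Ckb were Ip6k2, an inositol phosphate kinase (0.734), Ap3m2, an adaptor protein of vesicle sorting (0.763), and Dlat (0.782). Atp5g3 and Ckb were 1.38 apart. The 3 nearest genes of each were picked as the closest of many, so their distances are small by selection. Comparing 1.38 with them cannot tell whether Atp5g3 and Ckb are alike or unlike.

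Ckb is abundant in astrocytes and neurons, so markers of other cells were set beside it. The tables give ratios without levels, and the panel genes kept in them included 10 of 10 microglial markers and 12 of 64 markers of other brain and blood cells. Of these 12, 2 passed between UPS and LB, both with a positive sign, where 4.6% of all genes passed with a positive sign. Of the 10 microglial markers 1 passed between UPS and LB, Tmem119, a microglial surface protein, with 0.46 (adjusted p = 0.0076) in the authors' deposited table. By sign, 5 of the 10 were positive and 5 negative there, with a median log2 ratio of 0.0059. The astrocyte glutamate transporter Slc1a3 had, in the authors' deposited table, 0.25 (adjusted p = 0.00995) and the border macrophage gene Stab1 had 0.20 (adjusted p = 0.0146). The astrocyte enzyme gene Glul, at 0.15 (p = 0.0132, adjusted p = 0.117), and the neuronal gene Gad1, at 0.0029 (adjusted p = 0.999), did not pass between UPS and LB in the authors' deposited table. The part of other cells in the ratios of Ckb and Atp5g3 was not tested.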

How the data were processed

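Per the labels' protocols, sorted microglia were lysed and hybridised to the glial panel without RNA extraction, in 4 batches of 12 reactions. Per the series text, the authors compared pairs of rearing groups with the advanced analysis of nSolver, with batch as a covariate, after a first test on genes above 20 counts. Per the file headers, the 3 deposited tables give, for every gene, the log2 ratio of a pair of groups, the same as a linear ratio, its p-value, and that p-value adjusted by Benjamini-Hochberg. How counts were normalized, and with which reference genes, is not given in the sources used here, and depth is unknown.

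Values per library were not analysed here, and no fit was repeated. Adjusting the deposited p-values again over 478 genes, 0 calls differed from the deposited column. The UPS and LB ratio equalled the UPS and CTL ratio minus the LB and CTL ratio within 0.003. A standard error per gene was recovered from the ratio and two-sided p of the table with its smallest p, with a t distribution and 42 residual degrees of freedom, which belong to rearing and batch in 48 libraries. Between the 2 tables of a gene with the smallest p, the standard errors then differed by a median of 0.133%, and its other table was not compared. Rearing with sex gave 0.130% and fits of 2 groups 0.273% or more, so the choice among models of 48 libraries is not settled. F was the sum of the squared t values divided by 3. The recovery was tested on data simulated from rearing and batch with independent animals. That test cannot tell whether the deposited p-values came from this model. Littermates enter as independent animals, which makes intervals and p-values too small where litters differ.

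All 9 genes are named. Of each pathway list the genes that passed in any pair are named, or else the 2 with the smallest p, and for the 2 of the 9 genes with the smallest p the 3 nearest genes. Slc1a3, Stab1, Glul, Gad1, Tmem119, Pdha1, Got1, Slc25a12 and Pmp22 were named, and the promoter motifs chosen, after their values were seen. The genes and lists were chosen with earlier results of these data known. Lists for cytochrome c and assembly, creatine and adenylate handling, and the pentose phosphate pathway had 0 measured genes. Of 478 symbols 476 matched RefSeq (GRCm38.p6). Python 3.11.15, scipy 1.17.1, numpy 2.4.6 and pandas 2.3.3 were used.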

Additional observations from a re-analysis of the deposited data

How the results depend on the processing

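Each of the 27 ratios of the 9 genes was taken under 5 alternatives, and 131 of the 135 values kept their sign and their side of the threshold, with 0 changes of sign. The other 4 were the calls of Ckb and Atp5g3 between UPS and LB given beside their values. Of the 9 genes, the count past the threshold between UPS and LB was 2, and it was 1 with the 3 tables adjusted together, 1 after centring on the median and 0 with Benjamini-Yekutieli adjustment. By the F test of rearing the count was 1, and it was 0 with Benjamini-Yekutieli adjustment, 0 after centring and 2 at an adjusted p threshold of 0.1. Against CTL the counts were 0 for LB and 0 for UPS under all 6 alternatives. Over all genes, Benjamini-Yekutieli adjustment left 13 of 30 calls between UPS and LB, 4 of 23 between UPS and CTL and 12 of 33 by the F test. At an adjusted p threshold of 0.1 there were 48 between UPS and LB. Between LB and CTL, 3 genes passed with the tables adjusted together and 2 with a normal test, against 0 otherwise. No paired analysis was possible because the tables hold no values per library, and for the same reason no replicate could be left out and no batch or sex could be looked at alone.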
